A study of Mus musculus with 3 samples.

Results

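Stromal cells of the mouse ovary were compared between 2 of the 3 libraries held in one single-cell RNA-seq table, those whose cell barcodes end in 2 (barcode set 2) and in 1 (barcode set 1). The cells were chosen by their measured values and not by clustering. Deposited values are natural logs of UMIs scaled to 10000 per cell, with 1 added. A cell was a member when this value was at least 2 for Dcn, when at least 2 of the 4 genes Lum, Col1a1, Col3a1 and Pdgfra were above 0, when Inha and Cyp17a1 were each under 2, and when Ptprc and Pecam1 were 0. A UMI (unique molecular identifier) stands for 1 captured transcript molecule. By this rule 4117 of the 20301 cells of sets 1 and 2 were stromal, and 5961 of the 31776 cells of the table with set 3 included.

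The labels name 3 libraries from whole mouse ovaries taken 0, 1 and 6 h after an injection of human chorionic gonadotropin (hCG), with 1 library per time point, made on the 10x Genomics droplet platform. The study worked on prepubertal Kunming mice given pregnant mare serum gonadotropin (PMSG), and the ovaries of the libraries collected after hCG were not separately described as primed. No source used here says which barcode ending belongs to which time, nor how many ovaries were pooled into a library. The 2 groups are therefore called set 1 and set 2 throughout, no hour is given to either, and time after hCG and every other difference between libraries cannot be told apart.

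The ovarian stroma holds fibroblast-like cells that surround the follicles, supply the collagen and proteoglycan scaffold, and give rise to the theca layer. hCG acts on the LH receptor, which couples to cyclic AMP, and mural granulosa cells (GCs) and theca cells carry most of that receptor. In GCs this signal is known to raise the EGF-like ligands Areg and Ereg, which are shed and bind the EGF receptor on neighbouring cells, and with them the genes of matrix expansion and follicle rupture.

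The data behind the comparison were of similar size in both sets. Set 1 held 2160 stromal cells (20.8% of its 10384 cells, exact binomial 95% interval 20.02 to 21.6), set 2 held 1957 (19.7% of 9917, 19.0 to 20.5) and set 3 held 1844 (16.1% of 11475, 15.4 to 16.8). Their summed depth was 12374162, 12362388 and 12648022 UMIs, with medians of 4877.5, 5794 and 6250 UMIs per cell, so set 1 was the shallowest per cell. Mitochondrial genes took 3.19%, 3.66% and 2.62% of the stromal UMIs. Sets 1 and 2 shared 27 cell barcodes. Doublets were not removed, and no doublet caller was run. A level here is the summed UMIs of a gene per 10000 summed UMIs of all stromal cells of a set, and a ratio is the level in set 2 over that in set 1. Since each set is 1 library, no test was possible and no p-value is given. Intervals, all at 95%, are exact Poisson for levels, exact binomial for shares of cells and exact conditional binomial for ratios. They cover counting error only and not the spread between animals or libraries.

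The label was checked with genes that the rule did not use. The 5 stromal markers outside the rule (Col1a2, Ogn, Nr2f2, Tcf21 and Mfap4) summed to 43.5, 42.2 and 21.6 UMIs per 10000 in the stromal cells of sets 1, 2 and 3, against 1.85, 1.28 and 1.19 in GCs. GCs were taken by a rule of the same kind (Inha at least 2 with other GC markers, Dcn under 2) and numbered 4052, 4149 and 4582. The 12 GC markers summed to 5.11, 5.87 and 2.02 in stromal cells against 94.1, 101 and 25.9 in GCs. In stromal cells 8 endothelial markers summed to 0.773 in set 1 and 0.713 in set 2 and 8 myeloid markers to 0.171 and 0.189, and 0 of these reached a level of 0.5. Among 12 smooth muscle and pericyte markers, which summed to 16.3 in both sets, Acta2 alone stood at 14.3 and 14.1. Membership near the limit of the rule was alike in sets 1 and 2: 360 and 372 otherwise eligible cells had a Dcn value between 1.5 and 2, just outside it, and 531 and 526 between 2 and 2.5, just inside, with median Dcn values of the members of 2.97 and 2.89. In set 3 these counts were 868 and 819 and the median was 2.57.

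Across 10538 genes with 100 or more UMIs in the stromal cells of sets 1 and 2 together, 214 were 2-fold or more higher in set 2 (2.03% of those tested) and 378 were 2-fold or more lower (3.59%). The median ratio of all genes was 0.886, or -0.17 on the log2 scale, and after division by this median 290 genes were higher and 206 lower. The share of called genes that were higher thus moved from 36.1% to 58.5% with the scaling. Most called genes lay under 1 UMI per 10000. Of the 1622 genes that reached 1 UMI per 10000 in the higher set, the genes of the rule left aside, 44 were 2-fold higher and 20 were 2-fold lower, or 59 and 12 after division by the median. Above this level the genes called were thus mostly higher in set 2, led by the EGF-like ligands, while the transcription factor Osr2 and the prolactin receptor gene were among the lowest ratios.

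**Figure D1:**
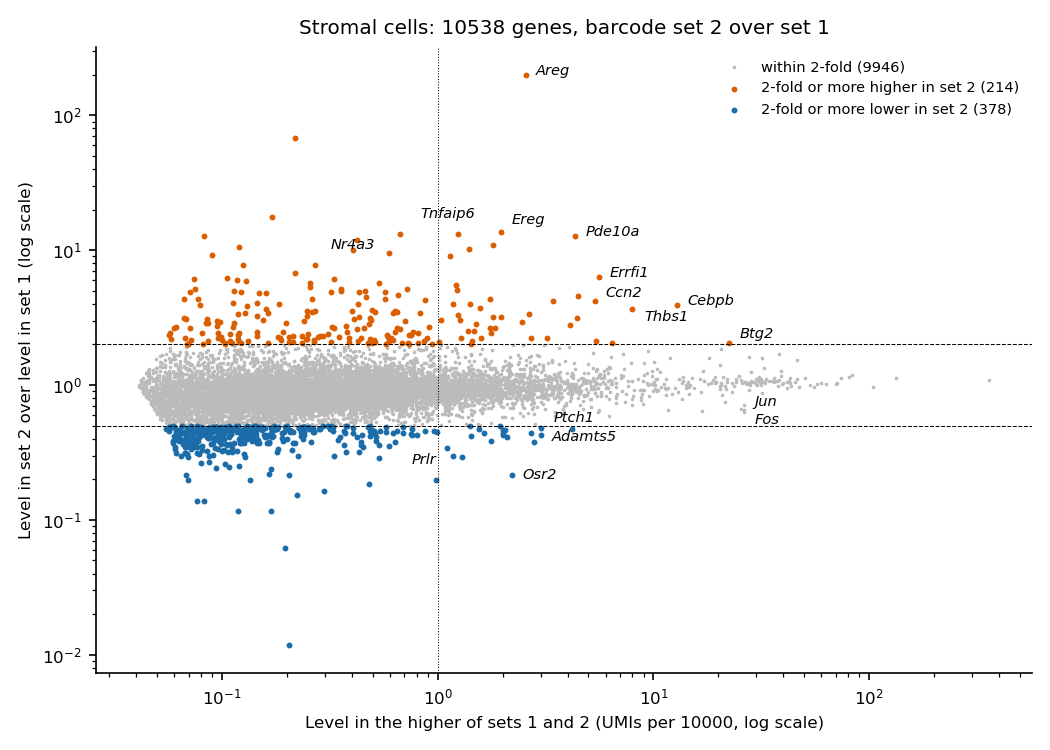
Each point is 1 of 10538 genes in stromal cells, with the level in the higher of sets 1 and 2 on the x axis (UMIs per 10000, log scale) and the ratio of set 2 over set 1 on the y axis (log scale). Dashed lines mark 2-fold, the dotted line marks a level of 1, orange points are the 214 genes higher in set 2 and blue points the 378 lower. Areg lies apart from all other genes at a ratio of 198.

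The gene with the highest ratio was Areg, which encodes amphiregulin. Its level was 0.0129 in set 1 (16 UMIs), 2.56 in set 2 (3163 UMIs) and 0.160 in set 3, which made a ratio of 198 (122 to 347). The ratio moved with the cells taken, to 94.8 with Inha and Cyp17a1 at 0 and 364 without cells with a UMI of Acta2, Myh11 or Rgs5. Ereg, the related ligand epiregulin, stood at 0.145, 1.97 and 0.728, a ratio of 13.6 (11.7 to 15.9). Both ligands were thus lowest in set 1, highest in set 2 and in between in set 3, and Areg alone was near the limit that 3 UMIs set. Their receptor gene Egfr was almost level between the sets, at 1.03 and 0.916 (0.889, 0.820 to 0.964), and the ligand gene Nrg1 was lower, at 0.509 and 0.331 (0.650). Areg and Ereg were the only members called among the 7 genes tested of a list of EGF ligands and receptors (28.6% higher, against 2.03% of all genes), whose median ratio was 1.26.

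Genes that answer cyclic AMP were also among the highest ratios. Pde10a, a phosphodiesterase that breaks down cyclic nucleotides, had a level of 0.339 in set 1, 4.35 in set 2 and 0.934 in set 3 (12.8, 11.6 to 14.2). Crem, which encodes a cyclic AMP-responsive transcription factor and its short repressor forms, had levels of 0.126, 1.14 and 0.309 (9.07, 7.68 to 10.8). For Rgs2, a regulator that shortens G protein signals, the levels were 0.978, 4.49 and 2.70 (4.59). In each of the 3 genes set 3 lay between the other sets. Of 19 genes tested in a list of cyclic AMP response genes, 11 were 2-fold higher in set 2 (57.9%, Areg included, against 2.03% of all genes) and 0 were lower (3.59% of all genes), with a median ratio of 2.97 against 0.886 over all genes. This list, like the others, was chosen with earlier results of these data known, so its share is a description. The same 19 genes had a median ratio of 5.76 in GCs. The other members called higher included Nr4a3 (0.0622 to 0.595, ratio 9.55), Pde4d (0.0323 to 0.218, 6.76), Pde4b (0.0711 to 0.357, 5.02), Sik1 (0.179 to 0.633, 3.55), Cebpb, Nr4a2 and Per1. Cebpb encodes a transcription factor of the C/EBP family that GCs need for luteinization. It was among the most abundant genes called, with levels of 3.28, 12.8 and 3.83 (3.91, 3.78 to 4.05). Creb3l1 (0.778) and Dusp1 (0.973) of the same list stayed within 2-fold, and so did Fosb, which was lower at 0.637.

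Promoters of 3 genes among the 15 genes with the highest ratios carried the full palindromic cyclic AMP response element, TGACGTCA. They are shown because this element is the textbook binding site of CREB and CREM. Of the 3 genes, Areg alone is in the list of cyclic AMP response genes, and Rgs2 of that list had a window without the full element. The windows are from RefSeq (GRCm38.p6), run from 250 bases before to 50 after the annotated start, lie on the + strand and have the element in capitals. It starts 61 bases before the start of Areg at chr5:91139349-91139648, 51 bases before that of Errfi1 at chr4:150854820-150855119 and 62 bases before that of Plk2 at chr13:110394794-110395093.
Areg: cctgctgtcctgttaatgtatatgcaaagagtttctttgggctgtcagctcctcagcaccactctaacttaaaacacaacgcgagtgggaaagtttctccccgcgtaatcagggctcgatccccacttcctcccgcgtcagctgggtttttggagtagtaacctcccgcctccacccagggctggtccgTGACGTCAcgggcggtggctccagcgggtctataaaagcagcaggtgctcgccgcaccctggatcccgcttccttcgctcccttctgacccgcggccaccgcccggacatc
Errfi1: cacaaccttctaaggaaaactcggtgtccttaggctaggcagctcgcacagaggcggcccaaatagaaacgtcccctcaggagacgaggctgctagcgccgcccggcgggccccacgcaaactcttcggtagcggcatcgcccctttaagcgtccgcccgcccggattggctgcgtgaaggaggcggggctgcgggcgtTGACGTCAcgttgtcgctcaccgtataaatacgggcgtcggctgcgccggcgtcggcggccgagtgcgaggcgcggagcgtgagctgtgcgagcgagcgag
Plk2: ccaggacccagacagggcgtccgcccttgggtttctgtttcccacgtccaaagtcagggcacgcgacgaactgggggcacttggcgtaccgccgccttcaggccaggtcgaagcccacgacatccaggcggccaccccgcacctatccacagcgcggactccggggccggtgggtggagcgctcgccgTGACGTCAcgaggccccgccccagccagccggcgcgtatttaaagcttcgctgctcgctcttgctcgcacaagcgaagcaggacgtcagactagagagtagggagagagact
The element was found in 3 of the 10 genes of the highest 15 that have a window in the table, in 0 of 9 matched genes of the lowest 15, and in 2.03% of all 27025 genes with a window (1.79% of 32851 windows). The shorter element TGACG, searched on both strands and contained in the full one, was in 5 of 10 and 4 of 9, against 23.0% of all genes. The AP-1 motif TGANTCA was in 1 of 10 (Tnfaip6) and 2 of 9, against 8.97%, and the CArG box bound by serum response factor was in 0 of both, against 1.81%. These matches describe letters in 300-base windows only. The shares over all genes with a window were not limited to genes tested in the stromal cells. Errfi1 has 2 windows, and the first that holds the element is shown.

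Immediate early genes, which are transcribed within minutes of a stimulus without new protein, did not move as one. Of 31 tested, 10 were 2-fold higher in set 2 and 0 were lower (32.3% against the 2.03% of all genes), with a median ratio of 1.26. Btg2, an antiproliferative gene, was the most abundant of those called, at 10.8 in set 1, 22.4 in set 2 and 7.79 in set 3 (2.06, 2.02 to 2.11), but its ratio was under 2 with a Dcn value of at least 3 (1.97), with Inha and Cyp17a1 at 0 (1.95) and without cells with a UMI of Acta2, Myh11 or Rgs5 (1.93). Egr3, a zinc finger factor, had levels of 0.244, 1.23 and 0.341 (5.06, 4.47 to 5.74), and its relative Egr2 had 0.567, 1.81 and 0.632 (3.19, 2.93 to 3.48). Their co-repressor Nab2 went the same way, from 0.402 to 1.75 with 0.716 in set 3 (4.35). Fosl2, an AP-1 subunit, stood at 1.45, 3.23 and 1.06 (2.23, 2.11 to 2.36). The nuclear receptor genes Nr4a2 (0.238 to 0.708) and Nr4a3, and Klf10, Ier5l and Srf, were also called, of which Klf10 fell from 2.23 to 1.51 without the cells with Acta2, Myh11 or Rgs5.

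The classic AP-1 genes went the other way without reaching 2-fold. Fos had a level of 26.4 in set 1, 16.8 in set 2 and 20.9 in set 3 (0.636, 0.625 to 0.647). Fosb had 16.8, 10.7 and 17.4 (0.637), and Jun had 26.2, 17.1 and 22.8 (0.654, 0.643 to 0.666). All of these ratios were also below the median ratio of all genes. Atf3, a stress-responsive factor of the ATF family, was at 1.995, 1.16 and 2.07 (0.580, 0.543 to 0.619). Junb (1.06) and Ier2 (0.932) were closer to level, and Egr1 (1.41) was higher in set 2 within 2-fold. Egr1 stood at 14.4, 20.3 and 11.2 UMIs per 10000. As these genes also respond to tissue dissociation, 14 dissociation and heat shock genes were read beside them: 0 were called in either direction (2.03% and 3.59% of all genes), their median ratio was 1.21, and 12 of the 14 were above the median of all genes. Their part in the values was not tested.

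**Figure D2:**
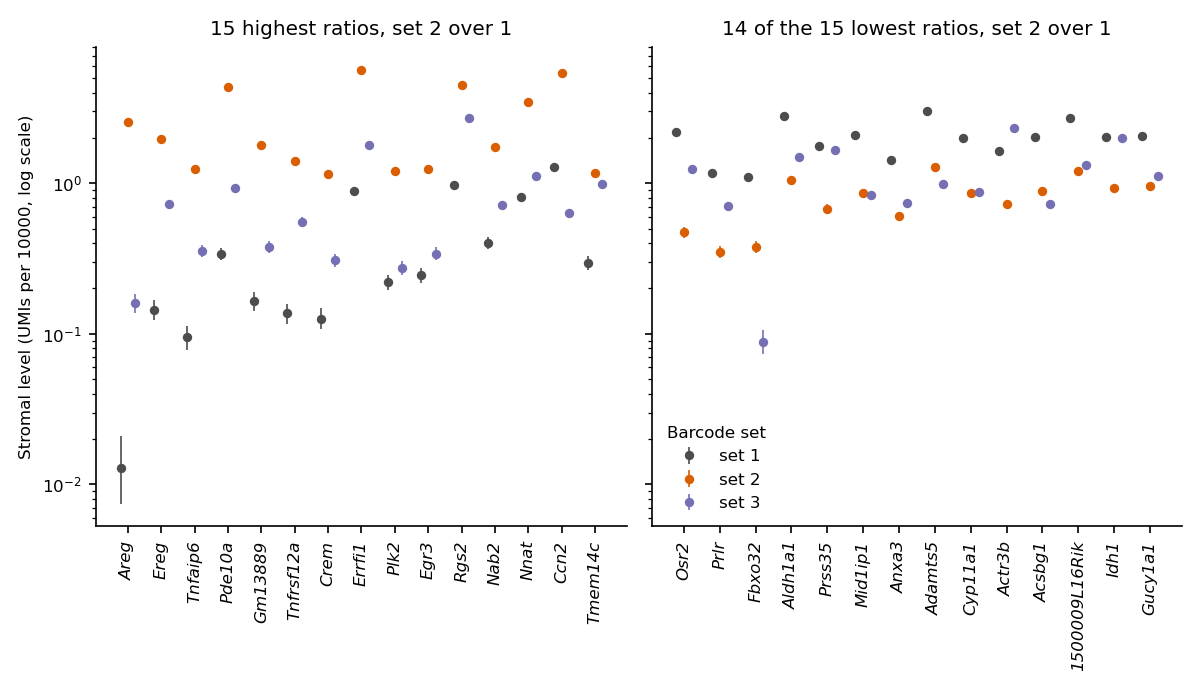
Stromal level in UMIs per 10000 (log scale) in barcode sets 1, 2 and 3 for the 15 genes with the highest ratio of set 2 over set 1 and 14 of the 15 with the lowest, with exact Poisson 95% intervals that cover counting error only. Areg ranges from 0.0129 in set 1 to 2.56 in set 2, and Ccn2 and Fbxo32 are examples where set 3 lies below both other sets.

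Of 16 feedback genes of receptor tyrosine kinase and ERK signalling tested, 6 were called higher (37.5%, against 2.03% of all genes) and 1 lower (6.25% against 3.59%). Errfi1, which binds and inhibits the EGF receptor, had levels of 0.881, 5.62 and 1.80 in sets 1 to 3 (6.38, 5.98 to 6.80). Dusp5, a nuclear ERK phosphatase, had 0.355, 1.41 and 0.465 (3.97, 3.57 to 4.41). The others called higher were Dusp6 (0.403 to 0.862, ratio 2.14, or 1.81 with Inha and Cyp17a1 at 0), Spry4 (0.148 to 0.513, 3.47), Spry2 and Dusp8. The one called lower was Etv1, at 0.179 and 0.0849 (0.473). Dusp1 and Spry1 were close to level, at 0.973 and 1.04. Plk2, a stress-inducible kinase, also belonged to the highest 15, with 0.220, 1.21 and 0.274 (5.51, 4.84 to 6.30).

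Of the few collagen and matrix genes called, most were higher in set 2, and the share called lower was below that of all genes. Tnfaip6, whose product crosslinks hyaluronan in the expanding cumulus, stood at 0.0946 in set 1, 1.24 in set 2 and 0.356 in set 3 (13.1, 10.9 to 16.0). The hyaluronan synthases Has1 (0.0921 to 0.459, ratio 4.99) and Has2 (0.0307 to 0.148, 4.82) were higher at low levels. Thbs1, which encodes the matrix glycoprotein thrombospondin 1, went from 2.17 to 7.95, with 1.81 in set 3 (3.67, 3.52 to 3.83), and Ccn2, a matricellular growth factor, from 1.28 to 5.35, with 0.632 (4.19, 3.96 to 4.42). Tnfaip6 and Ccn2 were counted in the cytokine and the immediate early list, not among the matrix genes. Of 36 collagen and matrix genes tested, only Has1, Has2 and Thbs1 were higher (8.33%, against 2.03% of all genes) and only Col14a1, a fibril-associated collagen, was lower (0.533 to 0.190, 0.357). This was 2.78% of the list against 3.59% of all genes, and the median ratio was 0.914. Col4a1, a basement membrane collagen, was at 11.7 and 7.63 (0.652), with ratios from 0.494 in cells led by Acta2, Myh11 and Rgs5 to 1.22 in those with none of the markers of 4 strata of stromal cells. Nid1, another basement membrane gene, was at 3.01 and 2.86 (0.950). The versican gene Vcan was at 0.893 and 0.902 (1.01), Col1a2 was at 20.4 and 19.2 (0.9404), and Mgp, a calcification inhibitor, was at 20.04 and 32.01 (1.597).

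Secreted proteases were called in both directions. Adamts1, which cleaves versican, stood at 1.21, 2.72 and 1.33 in sets 1 to 3 (2.25, 2.12 to 2.40), and its relative Adamts4 at 0.375, 1.24 and 0.5005 (3.30, 2.97 to 3.67). The plasminogen activators Plat (0.415 to 1.26, 3.04) and Plau (0.255 to 0.668, 2.62) and the receptor Plaur (0.0218 to 0.129, 5.89) were higher too. Adamts5, another proteoglycan-cleaving protease, was lower, at 3.02, 1.29 and 0.988 (0.426, 0.401 to 0.452), and so was Adamts15, at 0.0800 and 0.0210 (0.263). That made 5 higher of 24 tested (20.8%, against 2.03% of all genes) and 2 lower (8.33% against 3.59%), with a median of 1.19. Mmp2 (1.06), Mmp14 (1.01), Timp2 (0.930) and Timp3 (1.25) were close to level. Timp1, a protease inhibitor, was at 0.501 and 0.770 but at 16.1 in set 3.

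Cytokine and NF-kB genes had a median ratio of 0.981, with 5 of 32 called higher (15.6%, against 2.03% of all genes) and 2 lower (6.25% against 3.59%). Tnfrsf12a, the receptor of the cytokine TWEAK, was at 0.137, 1.40 and 0.550 (10.2, 8.74 to 12.1), and Il11 had 4 UMIs in set 1 and 271 in set 2 (67.8, 26.2 to 251). Nfkbia, the inhibitor and target of NF-kB, was lower in set 2, at 4.17, 1.98 and 4.59 (0.473, 0.451 to 0.497), though at 0.534 after division by the median of all genes and 0.506 with equal weight for each marker stratum. Also lower was the acute phase gene Saa3, at 0.222, 0.0340 and 0.167 (0.153). The interferon-responsive genes Cxcl10 (2.21 to 1.26, 0.568) and Irf1 (1.35 to 0.689, 0.510), and Icam1 (2.42 to 1.51, 0.623), lay below 1 within 2-fold. Cxcl14, a chemokine of fibroblasts, was level at 3.66 and 3.83.

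Steroidogenic genes were called in both directions, and the leading ones were at least as high in endothelial-rule cells, whose rule did not limit Cyp17a1. Star, which moves cholesterol into mitochondria, had 0.139, 0.720 and 0.967 (5.18, 4.39 to 6.13), and Fdx1, the ferredoxin that feeds electrons to mitochondrial P450 enzymes, had 1.41, 4.44 and 2.65 (3.14, 2.98 to 3.32). Cyp11a1, the side-chain cleavage enzyme, went down, from 2.01 in set 1 to 0.861 in set 2, with 0.877 in set 3 (0.429, 0.399 to 0.461), and Fdxr, the reductase of ferredoxin, from 0.485 to 0.220 (0.454). Cyp11a1 was above 0.5 in 4 alternatives, up to 0.599 with a Dcn value of at least 3. In endothelial-rule cells (Pecam1 above 0 with other endothelial genes) Star was at 0.218 and 0.959 in sets 1 and 2, Fdx1 at 1.62 and 4.55 and Cyp11a1 at 4.18 and 2.55. After thinning to 3000 UMIs per cell, Star had a UMI in 1.99% and 13.4% of stromal cells against 2.19% and 11.9% of endothelial-rule cells, and Cyp11a1 in 26.8% and 15.7% against 29.3% and 16.6%. The stromal levels of Star, Fdx1 and Cyp11a1 were thus no higher than those of endothelial-rule cells in either set. The rules differ, since Cyp17a1 had to be under 2 in stromal cells and had no limit in endothelial-rule cells. How far this shaped the comparison was not tested. The 16 genes tested had a median ratio of 1.19. These are also theca genes. The 7 theca and steroidogenic markers outside the rule, some of them in this list, summed to 8.91 in set 1 and 8.45 in set 2, and the part of theca-like cells in the values was not tested.

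The lowest ratios included those of a transcription factor, a hormone receptor and metabolic enzymes. Osr2, a zinc finger factor of mesenchyme, had levels of 2.20 in set 1, 0.473 in set 2 and 1.24 in set 3 (0.215, 0.196 to 0.235). Prlr, the prolactin receptor, had 1.18, 0.349 and 0.707 (0.297). Both were lowest in set 2, with set 3 in between. Fbxo32, a ubiquitin ligase gene of atrophy, stood at 1.10, 0.378 and 0.0886 (0.342), and Aldh1a1, which makes retinoic acid, at 2.79, 1.05 and 1.48 (0.375, 0.352 to 0.400). Gucy1a1, a subunit of the nitric oxide receptor, was at 2.06, 0.952 and 1.11 (0.462). The LH receptor gene Lhcgr was rare, at 0.430, 0.138 and 0.0174 (0.320), and it was the only one called of 16 nuclear and hormone receptor genes, whose median ratio of 0.698 lay below that of all genes. That is 6.25% of the list, against 3.59% of all genes lower. In thinned cells Lhcgr had a UMI in 6.73% and 2.94% of stromal cells of sets 1 and 2. In endothelial-rule cells, which had no Cyp17a1 limit, the shares were 7.40% and 3.54%. The part of free RNA and of theca-like cells in these values was not tested. Pgr, the progesterone receptor gene, was at 0.146 and 0.111 (0.758, 0.602 to 0.951). In the hedgehog pathway, by which GC ligands reach the stroma, the receptor and target gene Ptch1 was at 3.01, 1.45 and 2.01 (0.480, 0.454 to 0.508), or 0.542 after division by the median of all genes, and the target Gli1 at 0.252 and 0.228 (0.905).

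**Figure D3:**
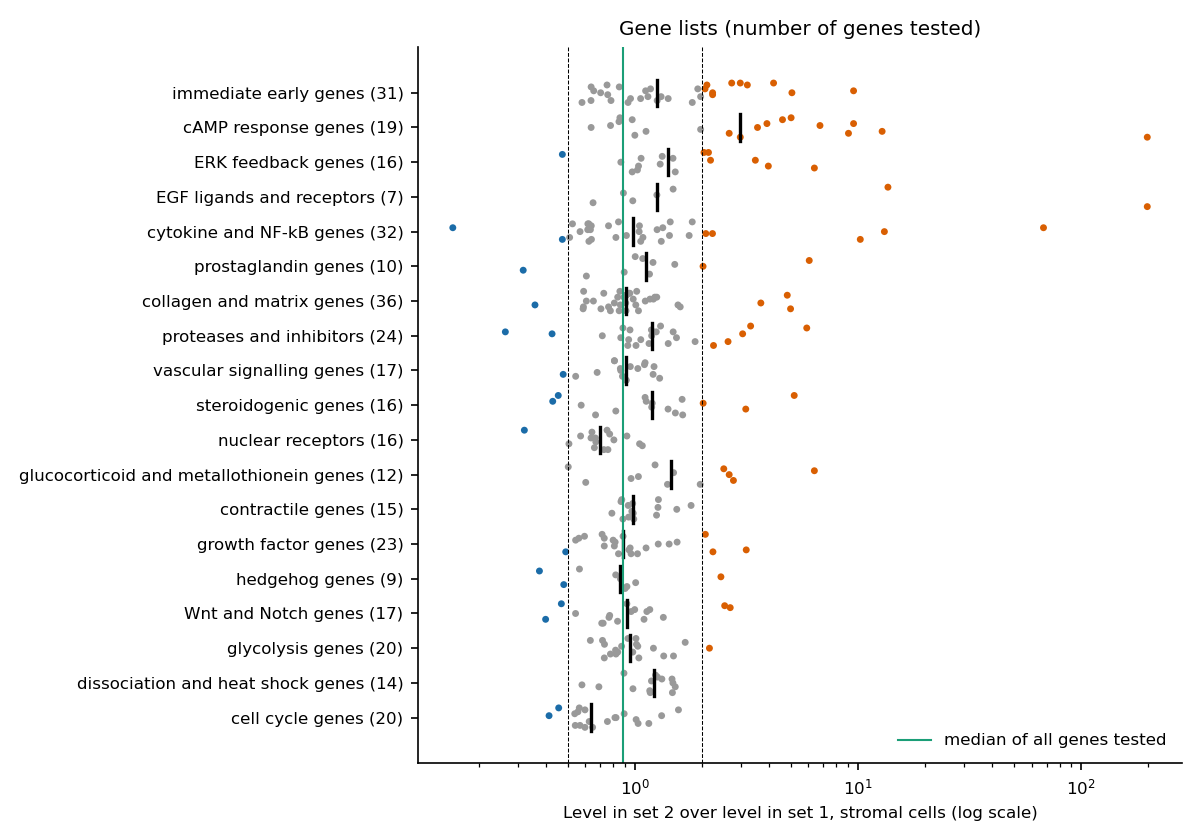
Ratio of set 2 over set 1 in stromal cells (x axis, log scale) for every gene tested of 19 gene lists (rows, with the number tested), orange where 2-fold or more higher and blue where 2-fold or more lower. Black bars are list medians and the green line is the median of all genes, 0.886. The cyclic AMP response genes have the highest list median at 2.97 and the cell cycle genes the lowest at 0.636.

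In the remaining lists the members called are to be read against 2.03% of all genes higher and 3.59% lower. Of 15 contractile genes 0 were called in either direction, with Tagln at 5.28, 9.43 and 14.5 (1.79) the highest of them. Cell cycle genes had a median of 0.636, with 0 of 20 called higher and 2 lower (Ccnb2 and Ccnd1). The direction was not the same in all stromal cells: Top2a, a topoisomerase of dividing cells, had a ratio of 0.598 in all, 0.559 in cells led by the marker genes Lamc3 and Adcy7 and 2.74 in cells led by Wnt4, Frem1 and Col12a1, and Birc5 had 0.647, 0.583 and 2.27. The cells led by Lamc3 and Adcy7, where both were highest in set 1, made up 28.4% of the stromal cells of set 1 and 20.3% of set 2. Among 12 glucocorticoid and metallothionein genes 4 were higher (33.3%). One was Mt2, a metallothionein, at 1.49, 4.11 and 15.6 (2.77, 2.62 to 2.92), which was highest in set 3, and another was Sgk1, a kinase, at 0.588, 1.47 and 0.545 (2.504). The others, Errfi1 and Per1, were also counted in the ERK feedback and cyclic AMP lists, and the glucocorticoid targets Fkbp5 (0.962) and Tsc22d3 (1.04) were close to level. In vascular signalling only Angpt2, a ligand that loosens vessels, was called, at 0.405 and 0.193 (0.478). Heyl, a Notch target, was at 0.550, 1.39 and 0.308 (2.53), and Notch1 itself at 0.121 and 0.324 (2.68). With Fzd2 and Wnt6, Wnt and Notch genes had 2 higher and 2 lower of 17 (11.8% each way, median 0.921). Heyl was at 1.98 with Inha and Cyp17a1 at 0, and Fzd2 moved from 0.469 to 0.529 after division by the median. The 9 hedgehog genes tested had a median of 0.862. Growth factor genes had 3 higher (Fst, Gdf10 and Tgfb1) and 1 lower (Hgf) of 23 (0.886), and prostaglandin genes 2 higher (Ptgfr and Ptgs2) and 1 lower (Ptger3) of 10 (1.12). Slc2a1, the glucose transporter GLUT1, was the only one called of 20 glycolysis genes (0.0873 to 0.188, 2.16). Fst is itself a GC marker, and its stromal level in set 2 was 2.47% of that in GCs. Outside all lists, Nnat, a membrane protein of the endoplasmic reticulum, was at 0.814, 3.43 and 1.11 (4.22, 3.94 to 4.53).

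Where set 3 lay differed between genes. Of the 44 genes at a level of 1 or more that were higher in set 2, 31 had a level in set 3 between those of sets 1 and 2, 5 exceeded set 2 and 8 were below set 1, and their median ratio to set 1 was 3.18 for set 2 and 1.41 for set 3. Of the 20 that were lower, 12 were in between, 5 were lower still in set 3 and 3 were above set 1, with medians of 0.435 and 0.550. Ccn2 (0.632 in set 3) and Fosl2 (1.06) lay below set 1, whereas Mt2 and Neat1, a nuclear long non-coding RNA, at 2.55, 5.39 and 10.4, went beyond set 2. Set 1 is the shared reference of both ratios.

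Because Areg, Ereg and several other leading genes are known GC genes, their levels were set beside those of other cells of the same library. In GCs of set 2 Areg was at 12.2, and in the 597 endothelial-rule cells at 0.505. The stromal level of 2.56 was thus 20.9% of the GC level and 5.07 times the endothelial level. For 9 GC markers with a level of at least 0.5 in GCs the stromal level was a median of 3.79% of the GC level (2.57% in set 1) and the endothelial level 4.21%. These markers ranged from 2.47% to 7.06% in stromal cells except Foxl2 (182%), which stromal cells held at 1.74 UMIs per 10000. Ereg was at 17.3% in stromal and 4.97% in endothelial-rule cells, Tnfaip6 at 17.1% and 4.32%, and Pde10a at 26.5% and 8.56%. In endothelial-rule cells Areg, Ereg and Tnfaip6 were thus near the share of the GC markers, and in stromal cells they were above it. These 3 genes do not stand for the highest 15. Over all 15 the median share was 28.5% in stromal cells and 22.7% in endothelial-rule cells, where it ranged from 4.13% to 120%. Most of that set was thus above the marker share in endothelial-rule cells too, such as Crem (20.1%), Errfi1 (27.8%) and Ccn2 (63.5%). The highest 15 genes were chosen by their stromal ratio, which favours a high stromal level in set 2, so these shares are a description. Gm13889, Plk2 and Tmem14c among them were lower in stromal than in endothelial-rule cells. Errfi1 (196%), Egr3 (201%), Ccn2 (219%), Nab2 (115%) and Nnat (683%) were above the GC level itself.

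**Figure D4:**
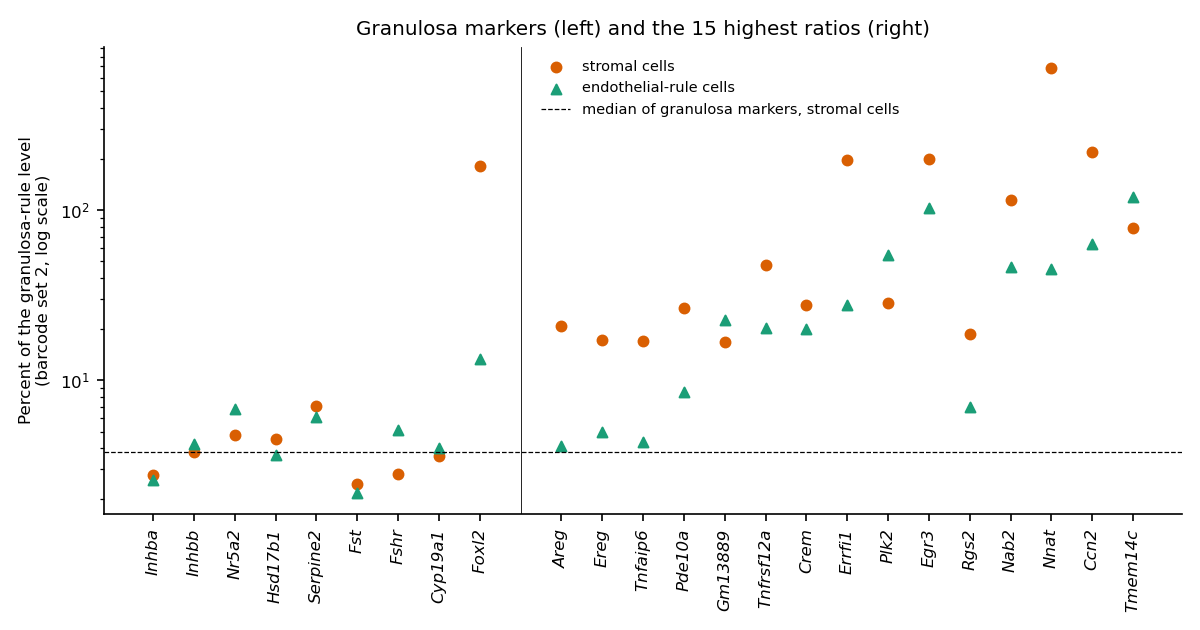
Level in stromal cells (circles) and endothelial-rule cells (triangles) of barcode set 2 as a percentage of the level in GCs of the same set (log scale), for 9 GC markers on the left and the 15 genes with the highest stromal ratio on the right. The dashed line is the stromal marker median of 3.79%, and Areg, Ereg and Tnfaip6 are at 20.9%, 17.3% and 17.1% in stromal cells against 4.13%, 4.97% and 4.32% in endothelial-rule cells. The median of the 15 genes is 28.5% in stromal and 22.7% in endothelial-rule cells.

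Shares of cells were compared after each cell was thinned to 3000 UMIs, which left out 348 stromal cells of set 1 and 156 of set 2. Areg then had a UMI in 0.221% of stromal cells of set 1 and 19.99% of set 2 (exact binomial 95% interval 18.2 to 21.9). Its shares were 0% and 11.5% in endothelial-rule cells and 0.341% and 48.4% in GCs. Without thinning the stromal shares were 0.509% and 30.3%. A higher share in set 2 was thus not particular to stromal cells. In endothelial-rule cells Ereg went from 0.274% to 11.4% and Pde10a from 5.75% to 24.0%, while Plk2 went down, from 57.5% to 46.7%. Errfi1 had one in 19.1% and 61.7% of stromal cells of sets 1 and 2, and in 13.7% and 17.3% of endothelial-rule cells. The GC marker Cyp19a1, which stromal cells should lack, had one in 1.21% of stromal cells of set 1 and 5.83% of set 2. Its shares were 1.37% and 5.96% in endothelial-rule cells and 30.2% and 55.8% in GCs. A gene that stromal cells should lack was thus also higher in set 2, and the part of free RNA in the stromal ratios was not tested. Osr2 had one in 38.4% and 11.4% of stromal cells and Prlr in 20.03% and 7.94%, while Btg2 was already in 76.0% in set 1 and in 94.7% in set 2. Median depths before thinning were 4877.5 and 5794 UMIs for stromal cells and 5965 and 5692 for the endothelial-rule cells of sets 1 and 2.

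In GCs the same 2 libraries gave other ratios for many of these genes, and both comparisons share their libraries. Areg had a ratio of 609 in GCs, Ereg 661, Tnfaip6 723, Pde10a 182 and Crem 30.3, each above the stromal ratio given earlier. Errfi1 was at 9.65 and Btg2 at 3.96. Thbs1 was at 1.33 (stromal 3.67), Egr2 at 1.78 (3.19) and Mt2 at 1.29 (2.77), and Nnat (0.573) and Ccn2 (0.579) were below 1 in GCs. Among the genes lower in stromal cells, Osr2 was at 0.290 in GCs, Ptch1 at 0.413 and Cyp11a1 at 0.828, while Nfkbia was at 1.12. Pgr, at 0.758 in stromal cells, was at 41.5 in GCs, and Ptgs2, which makes prostaglandins, went in stromal cells from 0.0194 to 0.117 (6.05, 3.91 to 9.74) and in GCs from 0.00188 to 1.16. No gene at a level of 1 or more in both cell types was past 2-fold in opposite directions. In thinned cells of set 1, Ereg had a UMI in 0.236% of GCs and 3.37% of stromal cells, Tnfaip6 in 0.315% and 1.93%, and Pde10a in 2.57% and 7.12%. The order of the 2 cell types was not clear for Areg (0.341% and 0.221%) and Crem (4.25% and 3.37%), whose intervals overlapped. Those of Areg were 0.182 to 0.583 in GCs (13 cells) and 0.0602 to 0.564 in stromal cells (4 cells). For Crem they were 3.63 to 4.94 and 2.58 to 4.30. None of these differences between cell types was tested.

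The stromal cells were not of one kind, so the ratios were read within 5 strata set by marker genes. Each cell went to the stratum whose genes it held most of, relative to their mean: Mfap5 and Clec3b (309 cells in set 1 and 466 in set 2), Wnt4, Frem1 and Col12a1 (702 and 645), Lamc3 and Adcy7 (613 and 398), Acta2, Myh11 and Rgs5 (336 and 318), or none of these (200 and 130). The first made up 14.3% and 23.8% of stromal cells and the third 28.4% and 20.3%. Of the 15 genes with the highest ratio, 14 were 2-fold or more higher in all 5 strata and 15 were above 1 in all. The exception was Ccn2, with a ratio of 7.34 in the Wnt4 stratum and 1.498 in the Lamc3 stratum. Of the lowest 15, 6 were at 0.5 or below in all strata, among them Osr2, Prlr, Adamts5, Actr3b and Idh1, and 15 were below 1 in all.

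Levels of the ligands differed between strata within set 2. Areg was at 1.23 in the Mfap5 stratum, 1.76 in the Acta2 stratum, 2.23 in the Wnt4 stratum, 3.22 in the Lamc3 stratum and 11.8 in cells with none of these genes, where set 1 held 2, 4, 1, 4 and 5 UMIs. Ereg was more even, between 1.69 and 1.93 in the 4 named strata, and at 4.76 in the cells with none. The cells with none were also those with the highest summed theca and steroidogenic markers, 16.9 in set 2 against 7.57 to 9.23 in the other strata, and with the lowest summed stromal markers, 25.2 against 29.8 to 50.5. Their summed GC markers, 5.73, were inside the range of the other strata, 4.42 to 7.20. The cells with none were also the shallowest, with median depths of 2967.5 and 3997.5 UMIs in sets 1 and 2. Medians of the named strata ran from 4222.5 to 6605.5 UMIs, and the part of depth in these levels was not tested. The cells with none gave 647 of the 3163 Areg UMIs of set 2. In the 4 named strata Areg was at 1.23 or more in set 2 and at 0.0174 or less in set 1.

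**Figure D5:**
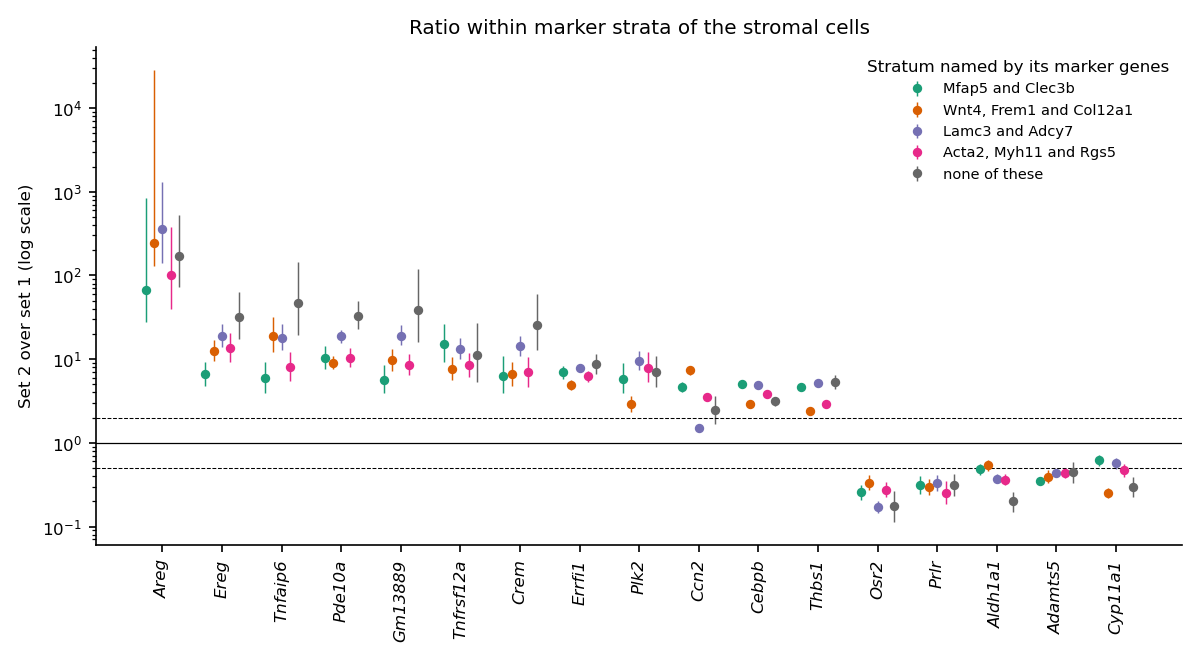
Ratio of set 2 over set 1 (log scale) within 5 strata of the stromal cells for 12 genes that were higher and 5 that were lower in set 2, with exact 95% intervals for counting error and dashed lines at 2-fold. A count under 3 UMIs in a set was put at 3 for the point, as for Areg in the strata led by Mfap5 and Wnt4, and Osr2, Prlr and Adamts5 lie below 0.5 in all 5 strata.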

How the data were processed

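The submitters' processing notes name Cell Ranger, Seurat and mm10, with no version given in the sources used here. Values as deposited, 1 table of 31776 cells by 24958 genes, are natural logs of UMIs scaled to 10000 per cell, with 1 added. UMI counts were worked back from it, and 100% of the values above 0 were whole within 0.01 UMI. Each deposited cell had at least 500 UMIs. Genes with 100 or more UMIs in the stromal cells of sets 1 and 2 together were compared, and called meant a ratio of 2 or more, or 0.5 or less. A count under 3 UMIs was put at 3. Named were the 15 highest and 15 lowest ratios at a level of at least 1 without the 9 rule genes, members of the gene lists at a level of at least 0.5, and Areg, Ereg, Ptgs2, Pgr, Star, Lhcgr and Fosl2. Genes called at a level under 0.5, as well as Gli1, Neat1, Zeb2, Oaf and Clec1a, were named after their values were seen, and the members and lists were chosen with earlier results of these data known. A few genes that these rules would name are not reported here. The interval code was tested on simulated data. The tools were Python 3.11.15 with numpy 2.4.6, scipy 1.17.1, pandas 2.3.3 and matplotlib 3.10.9.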

Additional observations from a re-analysis of the deposited data

Results flagged for a closer look

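In 5 of the named genes at a level of 1 or more in both stromal cells and GCs the ratio of set 2 over set 1 lay on opposite sides of 1 in stromal cells and in GCs, by at least 1.5 times each way, and none of these differences was tested. Zeb2, Oaf and Clec1a among them were named after their values were seen. The count is therefore no measure of how common such genes were. Atf3, a stress-responsive factor, had a ratio of 0.580 in stromal cells and 4.45 in GCs. Zeb2, a repressor of epithelial genes, stood at 0.661 and 3.54, with stromal levels of 3.81, 2.52 and 3.24 in sets 1, 2 and 3. Oaf was at 0.649 and 2.06. In the other direction, Ccn2 was at 4.19 in stromal cells and 0.579 in GCs, and Clec1a, a lectin receptor gene, at 1.62 and 0.524, with stromal levels of 0.768, 1.25 and 0.0625. Ccn2 also varied inside the stroma, from 1.498 in the Lamc3 stratum to 7.34 in the Wnt4 stratum.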

How the results depend on the processing

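The 15 highest genes stayed 2-fold or more higher under each of 10 alternatives, and of the 15 lowest 8 stayed at 0.5 or below. The other 7, 1500009L16Rik, Acsbg1, Actr3b, Anxa3, Cyp11a1, Gucy1a1 and Idh1, rose above 0.5 in at least 1 of them, and of the 60 named genes called at 2-fold 44 stayed past it in all 10 and 0 changed direction. Genes not called with a ratio between 0.886 and 1, such as Dusp1 and Ier2, were above 1 after division by the median. The count of genes higher in set 2 was 134 with Inha and Cyp17a1 at 0 (888 and 576 cells, 7327 genes tested) and 434 with a filter of 20 UMIs (13395 genes tested). The count of genes lower was 206 with ratios divided by their median, 146 with Dcn at least 3 (8214 genes tested), 139 with Inha and Cyp17a1 at 0, 170 without cells with a UMI of Acta2, Myh11 or Rgs5 (7552 genes tested) and 875 with the filter of 20 UMIs. All of these but the division by the median tested fewer or more genes. Areg had a ratio of 94.8 with Inha and Cyp17a1 at 0 and 364 without the cells with Acta2, Myh11 or Rgs5. The stromal level less the free RNA share of the GC level, an alternative chosen after seeing the data, gave 195 genes higher and 428 lower, with Areg at 169 and Ereg at 10.7. The count of immediate early genes was between 8 and 13. Cells of 1 library are not replicates, so leaving out a replicate was not possible. No paired analysis was possible because each barcode set is 1 library and the endings carry no replicate number.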

Other observations

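Several genes of secreted signals and 1 receptor gene at levels under 1 in sets 1 and 2 had high ratios in stromal cells, and they were chosen after their values were seen. Il11, an interleukin of the IL-6 family, was at 0.00323, 0.219 and 0.153 in sets 1, 2 and 3, a ratio of 67.8 in stromal cells against 7.32 in GCs. Calcb, which encodes a calcitonin gene-related peptide, was at 0.00970, 0.171 and 0.255 (17.6, 9.87 to 34.6), with 4.88 in GCs. Tac1, the precursor of substance P, was at 0.0113, 0.120 and 0.0783 (10.6, 6.11 to 19.8), with 7.91 in GCs. Procr, a protein C receptor, was at 0.0404, 0.405 and 1.28 (10.0, 7.49 to 13.7). Nts and Pnoc, both neuropeptide genes, were highest in set 3, Nts at 0.00647, 0.0825 and 1.72 and Pnoc at 0.0170, 0.105 and 1.84, and both had ratios above 300 in GCs, 628 and 349. The part of free RNA from GCs in these last values was not tested.

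Osr1, the close relative of Osr2, was at 0.297, 0.0485 and 0.132 in sets 1, 2 and 3 (0.164, 0.122 to 0.215) in stromal cells. Both Osr genes were thus lowest in set 2, and Osr1 had a ratio of 0.203 in GCs. Pank1, a coenzyme A synthesis enzyme, was at 0.987, 0.195 and 0.411 (0.198, 0.171 to 0.227).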
